A study of Mus musculus with 14 samples.

Results

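Hepatic stellate cells are the vitamin A store of the liver, and 9 genes of retinol storage, retinol transport and stellate cell identity were followed in livers of mice with acute liver failure. The 9 genes were picked by symbol from the 55357 genes of the count tables, and each symbol had 1 row. They are Lrat, Rbp4, Dhrs3 and Aldh1a1 for retinoids, Reln and Hhip as markers of quiescent stellate cells, Pdgfrb and Acta2 as markers of activated ones, and Des, which marks stellate and muscle cells. The 8 model samples came from mice injected into the peritoneum with 10 µg/kg of LPS (lipopolysaccharide from the outer membrane of bacteria) and 300 mg/kg of D-GalN (D-galactosamine, a sugar toxic to hepatocytes), and the 6 control samples from mice injected with saline. All were male C57BL/6 mice, 5 to 6 weeks old before acclimatisation, without any transgene or deletion in the labels. Whole liver was taken 24 h after injection, so no cell type was isolated. In such tissue, fewer cells of a type and less RNA per cell cannot be told apart.

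Retinol reaches the liver in lipoprotein remnants, is passed to stellate cells and is esterified there by lecithin retinol acyltransferase, the product of Lrat, for storage in lipid droplets. Retinol leaves the liver bound to the carrier RBP4, which hepatocytes secrete. Inside cells, retinol is oxidised to retinaldehyde, which DHRS3 reduces back to retinol and which ALDH1A1 oxidises on to retinoic acid. After injury, quiescent stellate cells are known to lose their retinoid droplets and to become contractile, matrix-producing myofibroblasts that hold smooth muscle actin, the product of Acta2.

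Lrat fell 6.36-fold and Acta2 rose 5.89-fold in the model livers, the pair with the most opposed changes among the 9 genes. Their promoter windows are shown because the 2 genes are used as markers of opposite states of stellate cells. That of Des, a muscle filament gene whose level did not pass the test, is shown with them. The windows run from 250 bases before to 50 bases after the transcription start, 5′ to 3′, from RefSeq on build GRCm38.p6. They lie at chr3:82903925-82904224 on the minus strand for Lrat, at chr19:34255324-34255623 on the minus strand for Acta2 and at chr1:75360042-75360341 on the plus strand for Des. Capitals, which nowhere overlap, mark the letters TATAA and CArG boxes with at most 1 G or C in their core. The CArG box is the site of serum response factor, an activator of smooth muscle genes.
Lrat: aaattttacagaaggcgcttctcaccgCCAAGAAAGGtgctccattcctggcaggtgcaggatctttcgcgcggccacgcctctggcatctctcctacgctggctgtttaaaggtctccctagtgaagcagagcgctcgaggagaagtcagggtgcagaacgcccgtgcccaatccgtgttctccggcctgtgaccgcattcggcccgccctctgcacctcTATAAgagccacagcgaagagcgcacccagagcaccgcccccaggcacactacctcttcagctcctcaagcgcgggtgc
Acta2: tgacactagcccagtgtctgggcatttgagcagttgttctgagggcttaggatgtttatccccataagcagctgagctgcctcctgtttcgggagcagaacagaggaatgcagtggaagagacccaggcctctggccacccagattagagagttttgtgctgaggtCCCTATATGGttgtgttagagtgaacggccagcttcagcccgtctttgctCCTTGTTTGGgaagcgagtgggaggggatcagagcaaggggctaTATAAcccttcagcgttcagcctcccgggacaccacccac
Des: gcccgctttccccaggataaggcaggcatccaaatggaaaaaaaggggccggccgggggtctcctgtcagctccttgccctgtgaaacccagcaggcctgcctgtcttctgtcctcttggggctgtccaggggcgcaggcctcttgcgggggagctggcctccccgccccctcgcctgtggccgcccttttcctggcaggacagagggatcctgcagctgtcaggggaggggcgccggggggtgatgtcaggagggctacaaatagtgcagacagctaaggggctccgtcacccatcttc
The Acta2 window held 2 such boxes, CCCTATATGG at bases -84 to -75 and CCTTGTTTGG at bases -34 to -25 before the start. The Lrat window held 1, CCAAGAAAGG at bases -223 to -214, and the Des window held none. Among 32851 promoter windows of the same length, 9.98% held a box of this form on either strand, and 1.63% held a CArG box without any G or C in the core. TATAA was present once in the Lrat window, at bases -29 to -25, and once in the Acta2 window, at bases 11 to 15 after the start, against 24.9% of all windows on either strand. The half-site letters AGGTCA of nuclear receptors, retinoid receptors among them, were in 16.3% of all windows on either strand and in none of the windows of the 8 genes searched, which leave out Pdgfrb. These matches are letters in a window and were not tested as binding sites.

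Of the 9 genes, 4 rose (Reln, Hhip, Pdgfrb and Acta2), 2 fell (Lrat and Dhrs3) and 3 did not pass the test (Rbp4, Aldh1a1 and Des) at an adjusted p under 0.05 in edgeR's quasi-likelihood test over all genes. All 9 passed the filter on low counts. In the same fit 47.9% of the 12915 genes tested were called, 26.6% higher and 21.3% lower, so calls were common throughout the liver. For 4 of the 9 genes, Lrat, Dhrs3, Hhip and Acta2, all model libraries lay on one side of all control libraries, which was so for 23.2% of the genes tested. Levels are CPM, a gene's counts relative to the depth of its library, scaled with TMM factors, and fold changes are model over control. Total counts in genes were 10329469 to 16639972 in the model libraries and 7914120 to 14463540 in the control libraries. Model 3 and model 4 held 5.79% and 4.1% of counts in ribosomal RNA genes, above the 0.816% to 2.21% of the other model libraries and the 0.12% to 1.98% of the controls. Without model 3 and model 4, Pdgfrb was the member whose call changed.

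**Figure D1:**
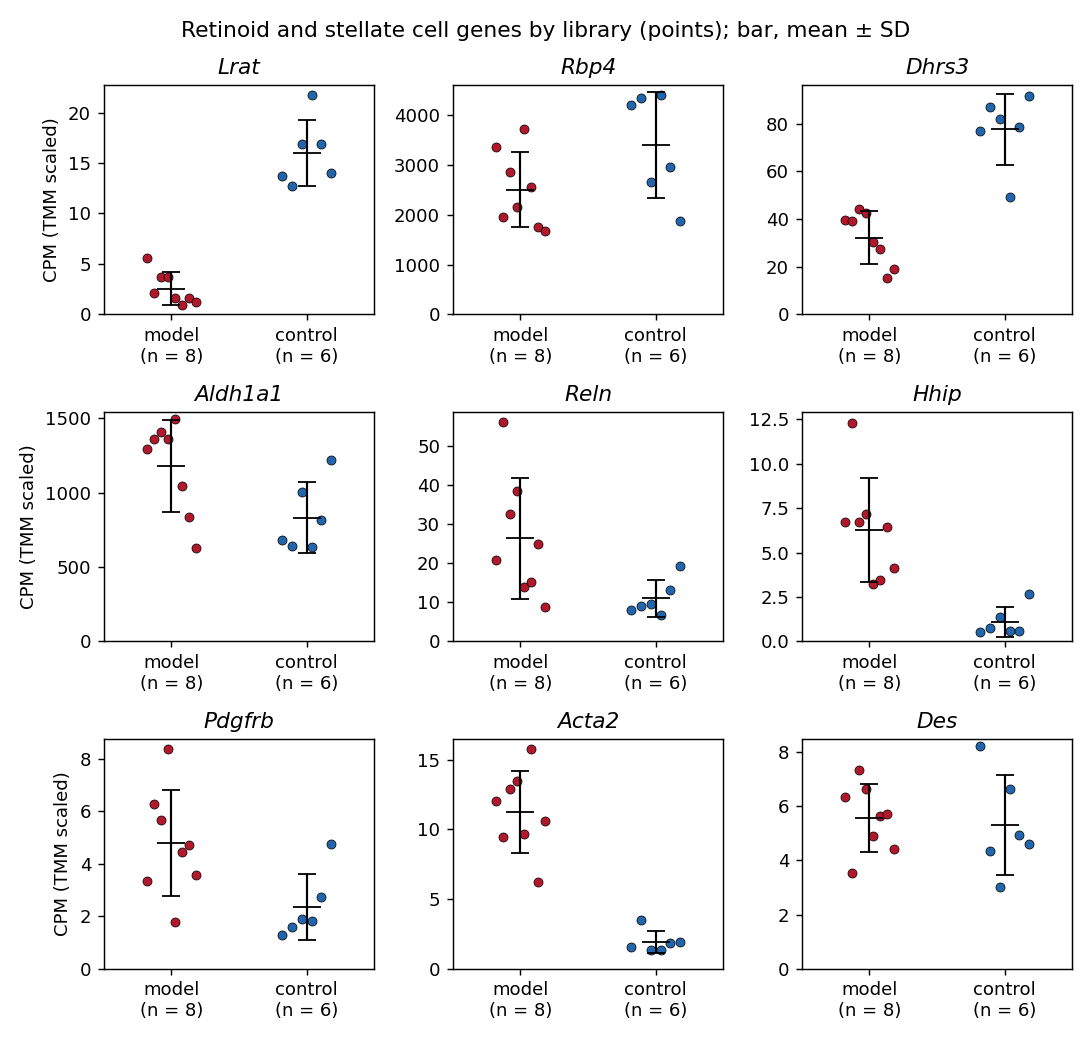
CPM of each of the 9 genes on axes from 0, with 1 point per library, model (n = 8) left of control (n = 6), and the mean ± SD. The groups do not overlap for Lrat, Dhrs3, Hhip and Acta2, and they overlap for the other 5 genes.

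Among the genes that store and carry retinol, Lrat, the enzyme that makes retinyl esters in stellate cells, was the one that fell most. Lrat was at 0.939 to 5.56 CPM in the model livers, median 1.88, and at 12.7 to 21.7 CPM in the control livers, median 15.5. Every model library was below every control library, with model 6 the lowest of all and model 1 the closest to the controls. The mean was 2.55 ± 1.62 CPM in model livers (SD, n = 8) and 15.99 ± 3.28 CPM in control livers (SD, n = 6). The log2 fold change was -2.67 (SE 0.34, 95% interval -3.34 to -2, edgeR adjusted p = 5.44e-06). The counts behind these values were 12 to 49 per model library and 107 to 285 per control library. No annotated exon of another gene overlaps those of Lrat.

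Rbp4, the plasma carrier of retinol that hepatocytes secrete, was the most abundant member and did not pass the test. It was at 1680 to 3730 CPM in the model livers, median 2361, and at 1867 to 4404 CPM in the control livers, median 3582. The groups overlapped over most of their ranges. Its log2 fold change was -0.44 (SE 0.24, 95% interval -0.92 to 0.04, edgeR adjusted p = 0.145), and it was called lower with library totals as the scale (-0.67, adjusted p = 0.00492). Ttr, transthyretin, which travels in plasma with RBP4, had a log2 fold change of -0.08 (SE 0.22, adjusted p = 0.78).

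Of the enzymes of retinaldehyde, Dhrs3 fell and Aldh1a1 did not pass the test. Dhrs3, which returns retinaldehyde to retinol, was at 15.2 to 44.1 CPM in the model livers, median 34.7, and at 49.4 to 91.6 CPM in the control livers, median 80.4. The groups did not overlap, with control 4 the only control below 77.1 CPM. Dhrs3 fell 2.42-fold (log2 fold change -1.27, SE 0.24, edgeR adjusted p = 0.000293). Aldh1a1, which makes retinoic acid from retinaldehyde and is abundant in hepatocytes, was at 631 to 1498 CPM in the model livers, median 1328, and at 632 to 1221 CPM in the control livers, median 751. Model 7 and model 8 were the lowest model libraries, at 839 and 631 CPM; model 7 lay within the control range and model 8 just below it. Its log2 fold change was 0.50 (SE 0.23, adjusted p = 0.0807), and it passed the threshold without model 8 (0.60, adjusted p = 0.0255) or without control 6 (0.68, adjusted p = 0.02). Aldh1a1 has a near-identical copy in the mouse, Aldh1a7, so reads shared by both may have been set aside.

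A ratio of counts within a library does not depend on the scaling. There were 31.9 to 55.2 Aldh1a1 counts for each Dhrs3 count in the model libraries, median 34.2, and 7.35 to 13.3 in the control libraries, median 11.3. The 2 groups of ratios lie far apart although the Aldh1a1 levels themselves overlap. These ratios carry the fall of Dhrs3, whose own levels did not overlap between the groups.

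Reln and Hhip, which quiescent stellate cells are known to express, both rose. Reln encodes the secreted glycoprotein reelin. It was at 8.90 to 56.1 CPM in the model livers, median 22.9, and at 6.66 to 19.3 CPM in the control livers, median 9.33. The ranges overlapped, since model 5, model 6 and model 8 were below control 6. Reln rose 2.39-fold (log2 fold change 1.26, SE 0.37, 95% interval 0.53 to 1.99, edgeR adjusted p = 0.00992), a call lost with library totals as the scale (0.97, adjusted p = 0.0519). Lrat and Reln, both detected in all 14 libraries and both used as stellate cell markers, thus changed in opposite directions.

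Hhip encodes a membrane protein that binds and blocks Hedgehog ligands. It was at 3.23 to 12.3 CPM in the model livers, median 6.58, and at 0.514 to 2.68 CPM in the control livers, median 0.661. All model libraries were above all controls, with control 6 closest to them. Hhip rose 5.49-fold (log2 fold change 2.46, SE 0.42, 95% interval 1.64 to 3.27, edgeR adjusted p = 0.000109). The log2 fold change was 2.17 without model 2 and 3.03 without control 6. The controls held 4 to 49 Hhip counts each, so the control level is known less precisely than the model level.

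Both genes are long, and longer genes had higher fold changes in general. The summed exonic length of Reln is 23.7 kb and that of Hhip is 9.08 kb in the GENCODE annotation of build GRCm38. Over 1542 tested genes of at least 9 kb the median log2 fold change was 0.31, against -0.23 over the 2579 genes of up to 2.12 kb. Within the groups, genes of at least 9 kb were high in model 7, model 2 and control 6 (median deviation from the group mean of 0.50, 0.34 and 0.65 on the log2 scale), and low in model 5 and control 1 (-0.34 and -0.37). With an offset for exonic length and GC content the log2 fold change was 0.95 for Reln (adjusted p = 0.0139) and 2.37 for Hhip (adjusted p = 4.42e-05). A predicted gene on the other strand, Gm10475 for Reln and Gm27820 for Hhip, overlaps 246 and 175 of their exonic bases. Whether reads of such stretches were counted is not known, since no strand setting is stated.

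**Figure D2:**
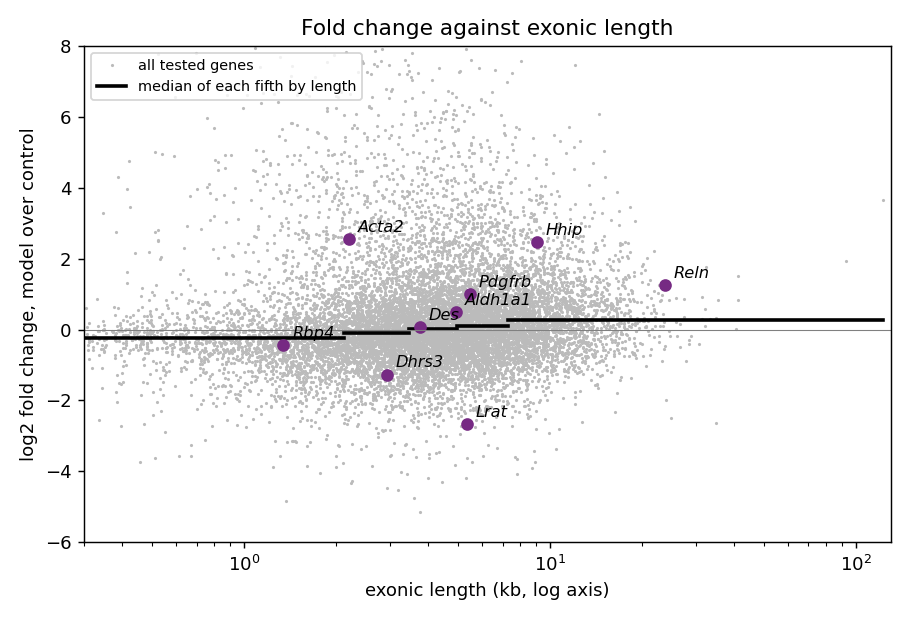
Log2 fold change (model over control) of 12899 tested genes against exonic length in kb on a log axis, with the 9 genes in purple and medians of 5 length bins of about equal gene number as black lines; 98 genes lie outside the axes. Hhip and Acta2 sit about as high while differing in length, 9.08 against 2.2 kb, and Lrat sits lowest of the 9.

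Markers of activated stellate cells gave 1 clear rise and 1 weaker one. Acta2, smooth muscle actin, was at 6.20 to 15.7 CPM in the model livers, median 11.3, and at 1.35 to 3.50 CPM in the control livers, median 1.68. The lowest model library, model 7, was above the highest control, control 2. The mean was 11.3 ± 2.92 CPM in model livers (SD, n = 8) and 1.91 ± 0.811 CPM in control livers (SD, n = 6), and the log2 fold change was 2.56 (SE 0.28, 95% interval 2.01 to 3.10, edgeR adjusted p = 7.23e-07). Actins are near-identical in coding sequence, so reads that fit several actin genes may be missing from its counts.

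Pdgfrb, the receptor through which platelet-derived growth factor drives stellate cells to divide and migrate, was at 1.76 to 8.38 CPM in the model livers, median 4.59, and at 1.29 to 4.76 CPM in the control livers, median 1.87. Control 6 was above 5 of the 8 model libraries. Pdgfrb was called 2.00-fold higher (log2 fold change 1.00, SE 0.35, 95% interval 0.32 to 1.68, edgeR adjusted p = 0.0246). The call was lost when a single one of model 2, model 4 and control 1 to 4 was left out (adjusted p 0.0519 to 0.0651), without model 3 and model 4 together (0.0843), with library totals (0.13), with upper-quartile factors (0.0542) and with the replicate number as a block (0.056).

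Des, the intermediate filament of stellate and muscle cells, did not differ beyond the spread. It was at 3.54 to 7.35 CPM in the model livers, median 5.68, and at 3.02 to 8.22 CPM in the control livers, median 4.77. The control range held the whole model range. The log2 fold change was 0.08 (95% interval -0.39 to 0.55, edgeR adjusted p = 0.803), and it was negative under some settings, such as -0.14 with library totals. Gm15179 overlaps 220 of its exonic bases.

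**Figure D3:**
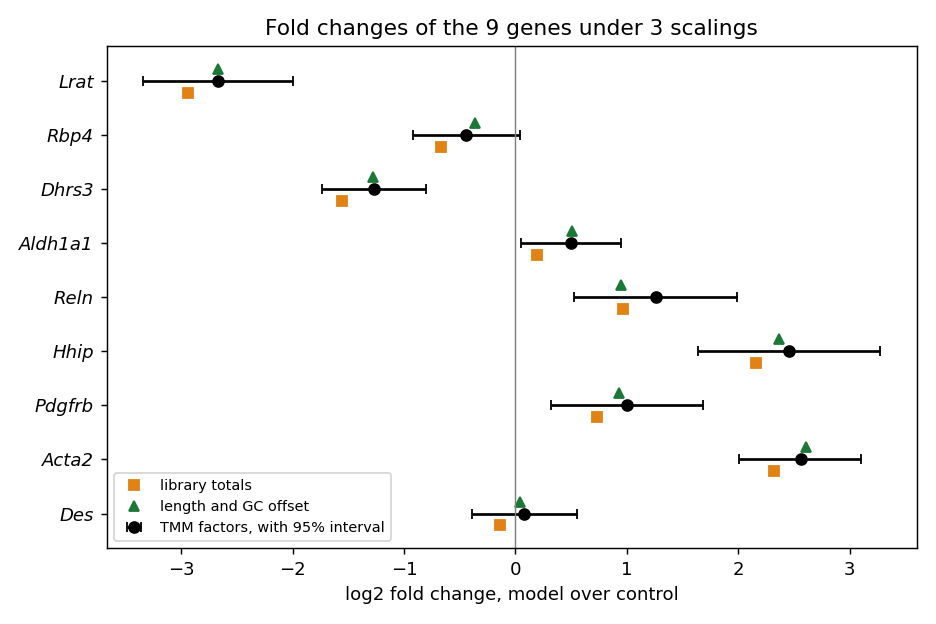
Log2 fold change, model over control, of each of the 9 genes with TMM factors and its 95% interval (circles), with library totals (squares) and with an offset for exonic length and GC content (triangles). The 6 called genes keep their side of 0 under all 3 scalings, and Des lies near 0.

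Set against Lrat within each library, the other stellate cell genes separated the groups without overlap. There were 2.17 to 16.8 Acta2 counts for each Lrat count in the model libraries, median 4.13, and 0.0622 to 0.275 in the control libraries, median 0.110. For Pdgfrb the ratio was 0.604 to 4.75 in the model libraries and 0.0844 to 0.340 in the control libraries. For Des, whose own level did not pass, it was 1.15 to 6.00 in the model libraries and 0.179 to 0.598 in the control libraries. For Hhip it was 1.21 to 5.75 in the model libraries and 0.0267 to 0.191 in the control libraries. These ratios are free of the scaling and carry the fall of Lrat in each case.

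**Figure D4:**
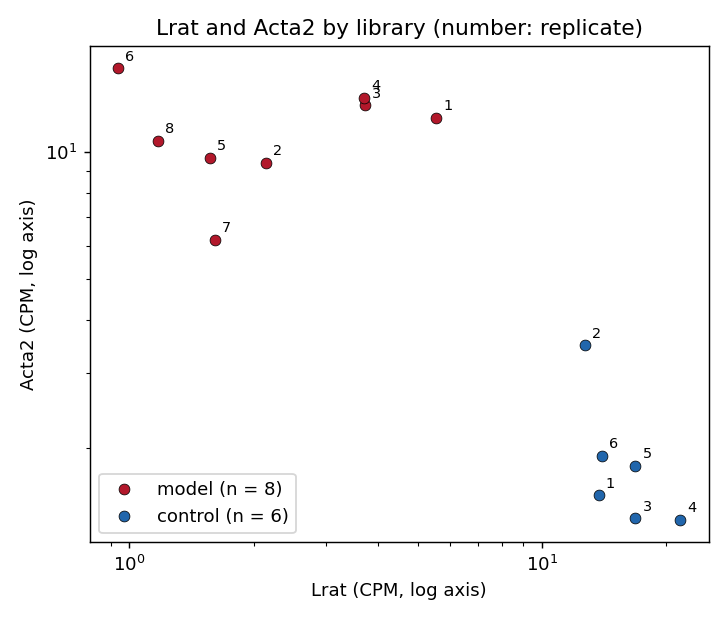
Acta2 against Lrat in CPM, both on log axes, with 1 point per library numbered by replicate. The 8 model livers lie at 0.939 to 5.56 CPM of Lrat and 6.20 to 15.7 CPM of Acta2, and the 6 control livers at 12.7 to 21.7 CPM of Lrat and 1.35 to 3.50 CPM of Acta2.

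Levels of different genes were compared per kilobase of exonic length. In the model livers the order of medians was Rbp4 (1760 CPM per kb), Aldh1a1 (269), Dhrs3 (11.8), Acta2 (5.16), Des (1.51), Reln (0.962), Pdgfrb (0.837), Hhip (0.725) and Lrat (0.350). In the control livers the order was Rbp4 (2670 CPM per kb), Aldh1a1 (152), Dhrs3 (27.5), Lrat (2.89), Des (1.27), Acta2 (0.764), Reln (0.393), Pdgfrb (0.340) and Hhip (0.0728). Lrat was thus last in the model livers and the fourth in the control livers, where its range did not overlap that of its neighbours. In the model livers the ranges of neighbours overlapped between Dhrs3 and Acta2 and from Des to Lrat, and in the control livers from Des to Hhip, so the order within those stretches is not resolved.

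Within groups, some members varied together from library to library. After each group's mean was removed from log2 CPM over the 14 libraries, Reln, Hhip and Pdgfrb had Pearson correlations of 0.71 to 0.78 with one another, and each was negative with Rbp4 (-0.37, -0.61 and -0.69). These libraries also differ in how they cover long and short genes, and Rbp4 is short, with 1.34 kb of exons. Acta2 was close to 0 with Lrat (-0.01), Reln (0.02) and Hhip (-0.10). The genes most like Reln in this measure, out of 10580 compared, were Col14a1 (0.95), Ecm1 (0.95) and Mlxip (0.92). Col14a1 encodes a fibril-associated collagen and Ecm1 a secreted matrix protein that quiescent stellate cells and hepatocytes make. Those most like Lrat were Alas2 (0.87), P2ry12 (0.87) and Mkrn1 (0.86), those most like Acta2 were Aldh3b1 (0.80), H1f2 (0.79) and Ogn (0.76), those most like Pdgfrb were Tmem164 (0.93), Ndc1 (0.92) and Arhgef17 (0.92), and those most like Rbp4 were Gpx1, Apom and Tmco1 (0.98 each). These correlations describe the libraries and carry no test.

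A wider list of retinoid genes held calls at about the rate of all genes. Of 30 tested genes of retinoid storage, transport and turnover, Lrat, Rbp4, Dhrs3 and Aldh1a1 included, 7 rose and 7 fell, and 16 did not pass (6 higher and 11 lower with library totals), where 26.6% of all genes tested were higher and 21.3% lower. The median log2 fold change was 0.10, beside 0.0099 over all genes tested. Aldh8a1, an aldehyde dehydrogenase that can act on 9-cis-retinal, fell by 2.08 on the log2 scale (SE 0.31), and Rdh14, a retinol dehydrogenase, fell by 1.48 (SE 0.19). Adh4, an alcohol dehydrogenase that can oxidise retinol, and Lipe, hormone-sensitive lipase, also fell, with log2 fold changes of -1 and -1.26.

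Among those that rose, Dhrs9, a dehydrogenase that can oxidise retinol, was at 8.02 ± 2.44 CPM in model livers and 0.554 ± 0.372 CPM in control livers (log2 fold change 3.84, SE 0.39, edgeR adjusted p = 3.52e-07). Rdh10, which makes retinaldehyde from retinol and works opposite to DHRS3, rose by 0.75 on the log2 scale (SE 0.15, adjusted p = 0.000633). Stra6l, the liver receptor for RBP4, rose by 1.09 (SE 0.24), and Aldh1a3, another retinaldehyde dehydrogenase, rose by 1.98 (SE 0.47) at a low level. Pnpla3, a lipase that acts on retinyl esters in human stellate cells, had a log2 fold change of 2.62 (SE 0.76, edgeR adjusted p = 0.00895). That change was 2.27 without control 3 and 4.39 without control 1. Dgat1, an acyltransferase, and Lpl, lipoprotein lipase, completed the 7, Dgat1 without a call under library totals (adjusted p = 0.0825). Cyp26a1, which degrades retinoic acid, was at 10.7 ± 7.44 CPM in model livers and 5.55 ± 5.05 CPM in control livers and did not pass (adjusted p = 0.206). Stra6 and Crabp1 had no count in any library.

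Of 6 receptors of retinoic acid and the retinoid X receptors, 3 fell and 3 did not pass (4 lower with library totals). Over all genes tested, 21.3% were lower. Rarb was at 0.626 to 1.73 CPM in the model livers, against 2.31 to 4.53 CPM in the control livers (log2 fold change -1.37, SE 0.26, edgeR adjusted p = 0.000303). Rxrg fell by 1.99 (SE 0.29) and Rxrb by 0.62 (SE 0.16), both with ranges apart. Rxra had a log2 fold change of -0.81 (adjusted p = 0.0773) and Rara one of 0.10 (adjusted p = 0.78).

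Markers of quiescent stellate cells as a list also held calls in both directions. Of 23 tested, Lrat, Reln and Hhip included, 10 rose, 7 fell and 6 did not pass (6 higher and 8 lower with library totals), with a median log2 fold change of 0.32. Over all genes tested, 26.6% were higher and 21.3% lower. Pth1r, the parathyroid hormone receptor, fell to 0.357 ± 0.248 CPM in model livers, against 8.48 ± 1.85 CPM in control livers (log2 fold change -4.48, SE 0.43, edgeR adjusted p = 1.71e-07). Vipr1, a receptor of vasoactive intestinal peptide, fell by 1.62 (SE 0.31), and Hand2, a transcription factor of stellate cells, by 1.24 (SE 0.38). Cygb, cytoglobin, Cxcl12 and Colec11 fell by 0.87, 0.97 and 0.71. The call of Colec11 was lost without any 1 of 6 libraries, with adjusted p up to 0.0819. In the other direction, Steap4, a metalloreductase that hepatocytes make as well, rose to 1183 ± 932 CPM in model livers, against 51.0 ± 20.3 CPM in control livers (4.54, SE 0.59). Dcn, the matrix proteoglycan decorin, rose by 1.70 (SE 0.21), and Hgf, the hepatocyte growth factor, by 1.16 (SE 0.34; adjusted p = 0.0525 with library totals). Ecm1, the gene that followed Reln across libraries, rose by 1.70 (SE 0.24). Ngfr, the p75 neurotrophin receptor, rose by 1.33 (SE 0.43).

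Genes of activated stellate cells and myofibroblasts were mostly higher. Of 23 tested, 20 rose (18 with library totals), and the other 3, Des, Fn1 and Tpm2, did not pass. Over all genes tested, 26.6% were higher. The median log2 fold change was 2.02. Tagln, a smooth muscle actin-binding protein, rose to 84.0 ± 22.2 CPM in model livers, against 13.6 ± 5.88 CPM in control livers (2.64, SE 0.28, edgeR adjusted p = 6.87e-07). Timp1, an inhibitor of matrix proteases, was at 17.9 to 38.6 CPM in the model livers and at 0 to 0.119 CPM in the control livers. Ccn2, connective tissue growth factor, rose by 3.75 (SE 0.30), and Tnc, tenascin C, by 4.72 (SE 0.72). Tnc gave 4.17 without model 7 and 5.65 without control 6. The collagen genes Col1a1, Col1a2 and Col3a1 rose by 1.61, 1.39 and 1.60. Col1a1 gave 1.45 without control 2 and 2.55 without control 6. Control 6 was at 5.03 CPM of Col1a1, against 0.530 to 1.13 in the other controls. Several of these genes, such as Vim, Tgfb1, Timp1 and Spp1, are also made by leukocytes or biliary cells. In these livers all 8 markers of neutrophils rose as well, summing to 1212 to 2801 CPM in model and 4.09 to 16.5 CPM in control, and 5 of 6 biliary markers rose, summing to 63.4 to 128 CPM in model and 40.3 to 60.4 CPM in control. Their part in the result was not tested.

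**Figure D5:**
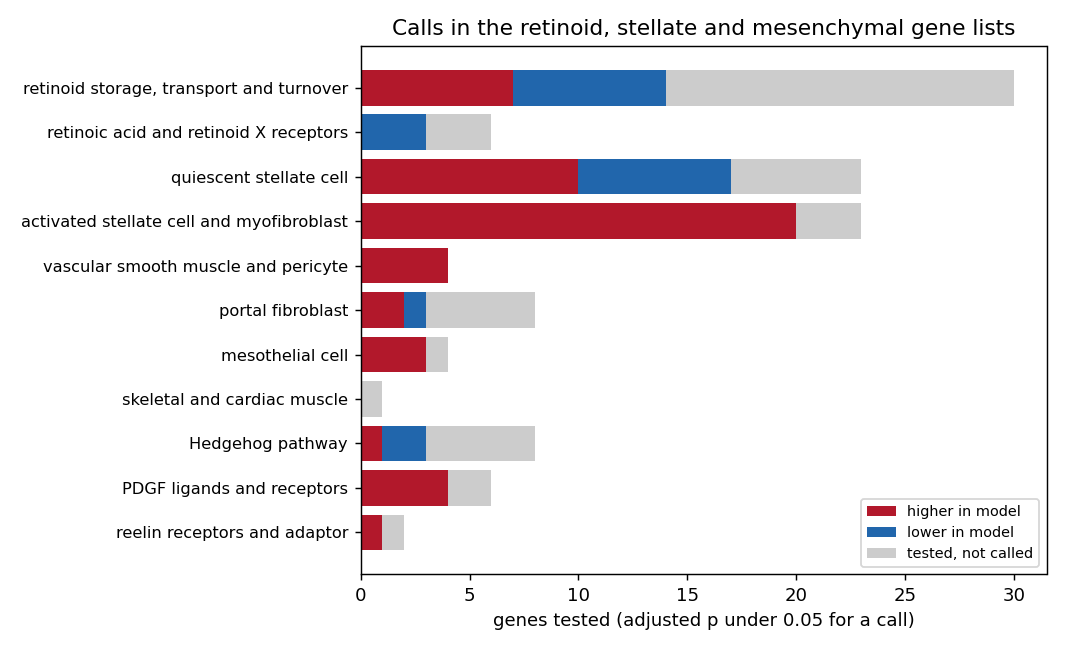
Number of tested genes called higher (red), called lower (blue) or not called (grey) in model against control livers, for 11 gene lists. The activated stellate list has 20 of 23 genes higher, while the retinoid and the quiescent stellate lists hold calls in both directions. Over all genes tested, 26.6% were higher and 21.3% lower.

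Cells other than stellate cells can supply Acta2, Pdgfrb and Des. Calls in their marker lists stand beside 26.6% higher and 21.3% lower over all genes tested. All 4 tested markers of vascular smooth muscle and pericytes rose, led by Mcam (log2 fold change 3.22, SE 0.39) and Myh11, smooth muscle myosin, which was at 2.83 ± 0.917 CPM in model livers and 0.425 ± 0.400 CPM in control livers (2.62, SE 0.46, edgeR adjusted p = 0.000156). Smtn, smoothelin, rose by 1.38 on the log2 scale. The summed level of that list was 108 to 207 CPM in the model livers and 39.9 to 64.0 CPM in the control livers, and 8 of its 12 genes had too few counts to test (7 of 12 rose when no filter was used). Mesothelial markers, Msln and Gpm6a among them, rose in 3 of 4 cases, with summed levels of 6.46 to 21.8 CPM in model and 0.742 to 9.36 CPM in control. Krt19 of that list also marks biliary cells. Of 8 portal fibroblast markers, 2 rose, Pi16 and Cd34, and 1 fell, Gas1, calls no more common than over all genes tested. The summed levels of portal fibroblast markers were 18.5 to 39.5 CPM in model and 24.5 to 33.1 CPM in control. The part of these cells in the rise of Acta2 was not tested. Markers of skeletal and heart muscle summed to 0.596 to 2.98 CPM in model and 0.659 to 2.99 CPM in control, and Myh2, Myh4 and Myh6 were at 0 in all libraries.

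Other resident cells of the sinusoid changed without a common direction. Of 10 sinusoidal endothelial markers 4 rose and 3 fell, with summed levels of 253 to 505 CPM in model and 178 to 237 CPM in control. Much of that gap came from 1 of these markers, at 83.6 to 176 CPM in model and 2.76 to 6.76 CPM in control. Of 8 Kupffer cell markers 3 rose and 3 fell, with summed levels of 215 to 465 CPM in model and 201 to 288 CPM in control. These sums overlap, although 1 of these markers was at 87.3 to 155 CPM in model and 2.97 to 13.3 CPM in control. Of 12 hepatocyte markers 3 rose, 0 fell and 9 did not pass. Calls were less frequent there than over all genes tested, where 47.9% were called, 26.6% higher and 21.3% lower. The 3 that rose were Tat, tyrosine aminotransferase (log2 fold change 1.40, SE 0.41), Alb, albumin (0.83, SE 0.21, edgeR adjusted p = 0.0693 with library totals), and Ass1, a urea cycle enzyme (0.81, SE 0.20). The summed level of that list was 81470 to 93940 CPM in model and 54370 to 77790 CPM in control. Alb was the largest part of it, at 40620 to 62930 CPM in model and 20250 to 48570 CPM in control. The sum therefore does not describe the list as a whole.

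The partners of Hhip, Pdgfrb and Reln were examined as lists, to be read beside the 26.6% of all genes tested that were higher and the 21.3% lower. Of 8 tested Hedgehog genes, Hhip alone rose, and Smo, the signal transducer, and Gas1, a co-receptor, fell by 0.72 (SE 0.23) and 2.57 (SE 0.39), against 1 higher and 4 lower with library totals. Ptch1, the Hedgehog receptor, was at 5.73 ± 3.93 CPM in model livers and 7.89 ± 3.59 CPM in control livers and did not pass (edgeR adjusted p = 0.364). Gli1 of the same list had too few counts to test. Of 6 genes of platelet-derived growth factors and receptors, 4 rose and 2 did not pass. Pdgfb, the main ligand of PDGFRB, was at 3.74 ± 2.38 CPM in model livers and 0.615 ± 0.417 CPM in control livers (2.57, SE 0.54, edgeR adjusted p = 0.000743), and Pdgfra rose by 2.02 (SE 0.33). The call of Pdgfa (1.11, adjusted p = 0.04) was lost without any 1 of 6 libraries and with library totals (0.0852), which left 2 of the 6 called. Of the reelin receptors, Vldlr did not pass (adjusted p = 0.266), and Lrp8 and the adaptor Dab1 had too few counts to test.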

How the data were processed

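RNA of 8 model and 6 control liver samples was enriched with oligo(dT) beads and read on an Illumina NovaSeq, per the labels' protocols. The deposited files hold raw read counts per gene. HISAT2 and build GRCm39 are named in the submitters' processing notes; the counting tool, strandedness and gene models were not given in the sources used here. The 5 summary lines of each file, 27.4% to 45.6% of its entries, name no gene and were left out. Labels do not state that each sample is a separate animal, so p-values reflect only how these samples vary, which may be technical. Libraries of 1 group differed by more than sampling noise in every pair (smallest chi-square per degree of freedom 23.3 over 43 pairs, genes with at least 20 counts).

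Counts were filtered with filterByExpr, which left 12915 genes, and tested with edgeR 4.0.16 (R 4.3.3), TMM factors, a robust quasi-likelihood fit on group, and Benjamini-Hochberg adjustment over all genes tested, at 0.05. SE is the log2 fold change over the root of F, and 95% intervals use 1.96 SE. Log2 CPM used a prior count of 2. Alternatives used DESeq2 1.42.0, limma 3.58.1, other scalings, no filter, left-out libraries, a replicate block and an offset for exonic length and GC content (mgcv 1.9.3). Length and GC came from GENCODE M21 on GRCm38, matched by identifier for 99.9% of the tested genes. On simulated counts for 12915 genes, edgeR recovered 2% of 50 genes changed 1.5-fold, 26% at 2-fold, 90% at 4-fold and 98% at 8-fold. Only 50 genes per fold were changed there, whereas 47.9% of the tested genes were called in these data. The adjustment is stricter in that setting, so the percentages do not give the recovery in these data.

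Members and lists were chosen with earlier results of these data known. From the retinoid, stellate, mesenchymal, pathway and hepatocyte lists, up to 3 called genes with the largest change in each direction are named where the mean reached 1 CPM in either group; further genes of these lists were chosen after their values were seen. The sinusoidal, Kupffer, neutrophil and biliary lists are given as counts and summed levels, and their genes are named only where a value stood apart or a gene is on another list. For 5 members, the 3 genes with the highest correlation are named, among those at 1 CPM or more in both groups, leaving out predicted genes. 1 list gene is not reported by name here. No set test was run.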

Additional observations from a re-analysis of the deposited data

Results flagged for a closer look

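Some values lay far from the rest of their own group by Dixon's criterion, which chance meets in about 1 of 20 groups of values; 11 of 115 groups examined met it, 3 of them among the 18 of the 9 genes. Hhip was at 12.3 CPM in model 2, against 3.23 to 7.17 CPM in the other model livers. Dhrs3 was at 49.4 CPM in control 4, against 77.1 to 91.6 CPM in the other controls. Acta2 was at 3.5 CPM in control 2, against 1.35 to 1.92 CPM in the other controls. Leaving out any of these libraries kept the calls of the 3 genes.

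Among the other named genes, control 6 was apart for Alb (48600 CPM), Cd163 (11.8 CPM) and Kdr (23.7 CPM), model 4 for Gpr182 (12.5 CPM) and Pnpla3 (2.79 CPM), control 1 for Pnpla3 (1.16 CPM), model 7 for Tnc (21.2 CPM) and control 5 for Vipr1 (53.4 CPM), each above the rest of its group.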

How the results depend on the processing

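When library totals replaced TMM, the median log2 fold change of all genes moved to -0.23, and 2533 genes were higher and 3955 lower, against 3437 and 2751 with TMM; 2 members were then called higher, Hhip and Acta2, and 3 lower, Rbp4 added. Over the 24 alternatives, Lrat and Dhrs3 stayed called lower and Acta2 and Hhip higher, with adjusted p up to 0.000178, 0.00526, 4.84e-05 and 0.00151. Leaving out 1 library at a time gave 3 to 5 members called higher and 2 lower, and 2975 to 3983 genes higher and 2452 to 2809 lower. The sign of Des turned with library totals (-0.14), upper-quartile factors (-0.06), without control 3 (-0.05; over single libraries -0.05 to 0.24) and without model 3 and model 4 (-0.04), each far from a call. Replicate numbers 1 to 6 occur in both groups without a stated pairing. Same-numbered deviations correlated between -0.34 and 0.36, which cannot decide whether the libraries were paired. With the number as a block over 12 libraries, 4 members were called higher, Aldh1a1 among them (0.76, adjusted p = 0.0237) and Pdgfrb not (1.12, adjusted p = 0.056), and 2 lower, and 2949 genes were higher and 2207 lower. Without the block, a fit on the same 12 libraries, added after seeing the data, gave 0.71 for Aldh1a1 (adjusted p = 0.00783). The causes of these differences were not tested. Among the 9 genes, counts were fewest for Hhip in the controls, at 4 to 49 per library.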
